A study of Mus musculus with 30 samples.

Results

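Trp63, Snai2, Mef2c, Id1, Id2, Id3 and Id4 were taken by name from a table of normalized counts of 11137 genes in 30 libraries of sorted mouse mammary epithelial cells, and all 7 were present in it. The first 3 are transcription factors grouped here for their place in the basal layer of the gland, and the other 4 are the Id genes of the mouse. Luminal cells (15 libraries) and basal cells (15 libraries) were sorted by CD24 and CD49f, without cells carrying CD45 or CD31, from female mice of mixed background. By the study's sorting scheme the luminal cells were also GFP-positive, that is, recombined at the reporter, and whether the basal gate used GFP is not clear from it. RNA was read near the 3′ end of each transcript. The comparisons made were between lineages, between genotypes and between virgin and parous glands.

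All mice carried K8rtta, TET-O-Cre and the mTmG reporter, a set of alleles in which the Krt8 promoter places Cre recombinase, through doxycycline, in luminal cells, and all had drunk doxycycline at 1 mg/ml from week 3 to week 8 of life by the labels (the study's methods start it at week 4). K8imTmG mice had no further change. K8iΔRank mice also carried 2 floxed Rank alleles, so the deletion was directed at luminal cells and, by design, not at basal cells. Parous mice had gone through pregnancy and involution and were compared with virgin mice, but the K8iΔRank mothers had failed to lactate, so the parous genotypes also differed in that history. Exact ages are not given in the labels. There were 3 luminal virgin K8imTmG, 3 luminal virgin K8iΔRank, 5 luminal parous K8imTmG and 4 luminal parous K8iΔRank libraries. The basal libraries were 3 virgin K8imTmG, 4 virgin K8iΔRank, 4 parous K8imTmG and 4 parous K8iΔRank, and 13 of the 17 mice gave both lineages.

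p63, the product of Trp63, maintains the basal state of stratified and bilayered epithelia and controls keratins and the integrins that tie basal cells to their matrix. Snai2 encodes Slug, a zinc-finger repressor of epithelial genes that binds E-box sequences, and Mef2c encodes a MADS-box factor best known from muscle, while mammary basal cells are themselves contractile. Id proteins are helix-loop-helix proteins without a DNA-binding basic region: they pair with E proteins and keep them from E-box sites, and Id genes are classical targets of BMP signalling through Smad proteins.

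On GRCm39 in GENCODE vM39, each member is a protein-coding gene. Trp63 (ENSMUSG00000022510.15) lies at chr16:25502513-25710852, plus strand, and Snai2 (ENSMUSG00000022676.9) at chr16:14523425-14527252, plus strand. Mef2c (ENSMUSG00000005583.18) lies at chr13:83652064-83815555, plus strand, and Id4 (ENSMUSG00000021379.4) on the same chromosome at chr13:48414558-48419502, plus strand. Id1 (ENSMUSG00000042745.11) is at chr2:152566218-152579544, plus strand, Id2 (ENSMUSG00000020644.11) at chr12:25143798-25147282, minus strand, and Id3 (ENSMUSG00000007872.5) at chr4:135870808-135873066, plus strand. The annotation places at least 1 other gene across each member except Snai2, and none of these overlapping genes was in the table.

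Because E proteins, Snai2, Smad proteins and Mef2 factors bind short known motifs, promoter sequence was searched on both strands for 4 motifs. The E-box was spelled CANNTG, and its Snai2-bound form, which every general E-box search also finds, was spelled CAGGTG. For Smad proteins the motif was GGCGCC, and for Mef2 factors their published consensus was used. The windows ran from 250 bases before to 50 bases after a start site in RefSeq's GRCm38.p6 promoters, a build other than that of the counts. Of all 32851 promoters, 72.3% held CANNTG, 20.2% CAGGTG, 11.9% GGCGCC and 3.19% the Mef2 consensus. Promoters were matched for 4 members (6 promoters, 3 of them of Mef2c), and Trp63, Snai2 and Id1 had no entry. The stretches below show every match in those 6 windows, with the motif in capitals:
Id2, chr12:25096307-25096334, minus strand, motif 231 to 226 bases before the start: caggccccctgGGCGCCcagcgcacact
Id4, chr13:48260957-48260984, plus strand, motif 148 to 143 bases before the start: tcgggttgcccGGCGCCccgccctcgcc
Id2, chr12:25096272-25096299, minus strand, motif 196 to 191 bases before the start: atttgccacccCAGCTGggctctcgccc
Mef2c promoter 1, chr13:83503789-83503816, plus strand, motif 234 to 229 bases before the start: ctgaaatgaagCAAGTGtgtgctatgtt
Mef2c promoter 1, chr13:83503923-83503950, plus strand, motif 100 to 95 bases before the start: actttttatacCATATGaaagcaatttc
Mef2c promoter 3, chr13:83573357-83573384, plus strand, motif 245 to 240 bases before the start: aatgcCAGATGgtgattgaaggggctcc
Id2 and Id4 each held 1 GGCGCC. Id2 and 2 of the 3 Mef2c promoters held E-boxes of other forms than CAGGTG. None of the 4 motifs was found in the Id3 window or in the second Mef2c window.

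Library depth ran from 340445 to 3130419 reads (median 1853588), and 1 read was worth 0.381 to 5.43 normalized counts, so a value of a few units in a shallow library is 1 read. The libraries fell into a Clec2d-high set (14 libraries, Clec2d at 65.6 to 199 normalized counts) and a Clec2d-low set (16 libraries, 0.641 to 8.68), with median depths of 878947 and 2478110 reads. In 10 of the 13 mice with both lineages, the luminal and basal libraries lay on opposite sides of this split. All luminal virgin K8imTmG, luminal parous K8iΔRank and basal virgin K8iΔRank libraries were Clec2d-low, and all luminal virgin K8iΔRank, basal virgin K8imTmG and basal parous K8imTmG libraries were Clec2d-high. Luminal parous K8imTmG held 2 high libraries (mice 494 and 557) and basal parous K8iΔRank 2 (mice 794k and 830k). The virgin genotype comparisons, the lineage comparisons within each virgin genotype and the luminal K8iΔRank parity comparison therefore cannot be told apart from the split. Counts of Rank (Tnfrsf11a) were 9.57 to 18.6 in luminal virgin K8imTmG against 11.5 to 23.8 in luminal virgin K8iΔRank, and 12.8 to 64.9 against 27.0 to 41.1 in the parous groups. The Rank counts do not check the deletion, since 3′ reads can fall outside the deleted part. The 9 basal markers summed to 10784 to 17770 in basal and 63.9 to 328 in luminal libraries, and the 7 luminal markers to 4612 to 12652 in luminal and 729 to 2005 in basal libraries.

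Trp63, Snai2, Mef2c and Id4 were basal genes in all 13 mice, Id1 was higher in basal cells to a smaller extent, and Id2 and Id3 were found in both lineages. Averaged over the 4 conditions, 5 of the 7 members were higher in basal cells and none was lower (limma on log2(normalized count + 1), called at adjusted p below 0.05). Of all 11133 genes tested, 27% were called higher in basal cells, and 55.7% were called in either direction. The shares of genes given with later comparisons are for either direction unless one is named. How many of all genes had groups that did not overlap was not counted in any comparison, so such ranges only describe the members. In these bulk libraries, fewer cells of a type and less RNA per cell cannot be told apart.

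**Figure D1:**
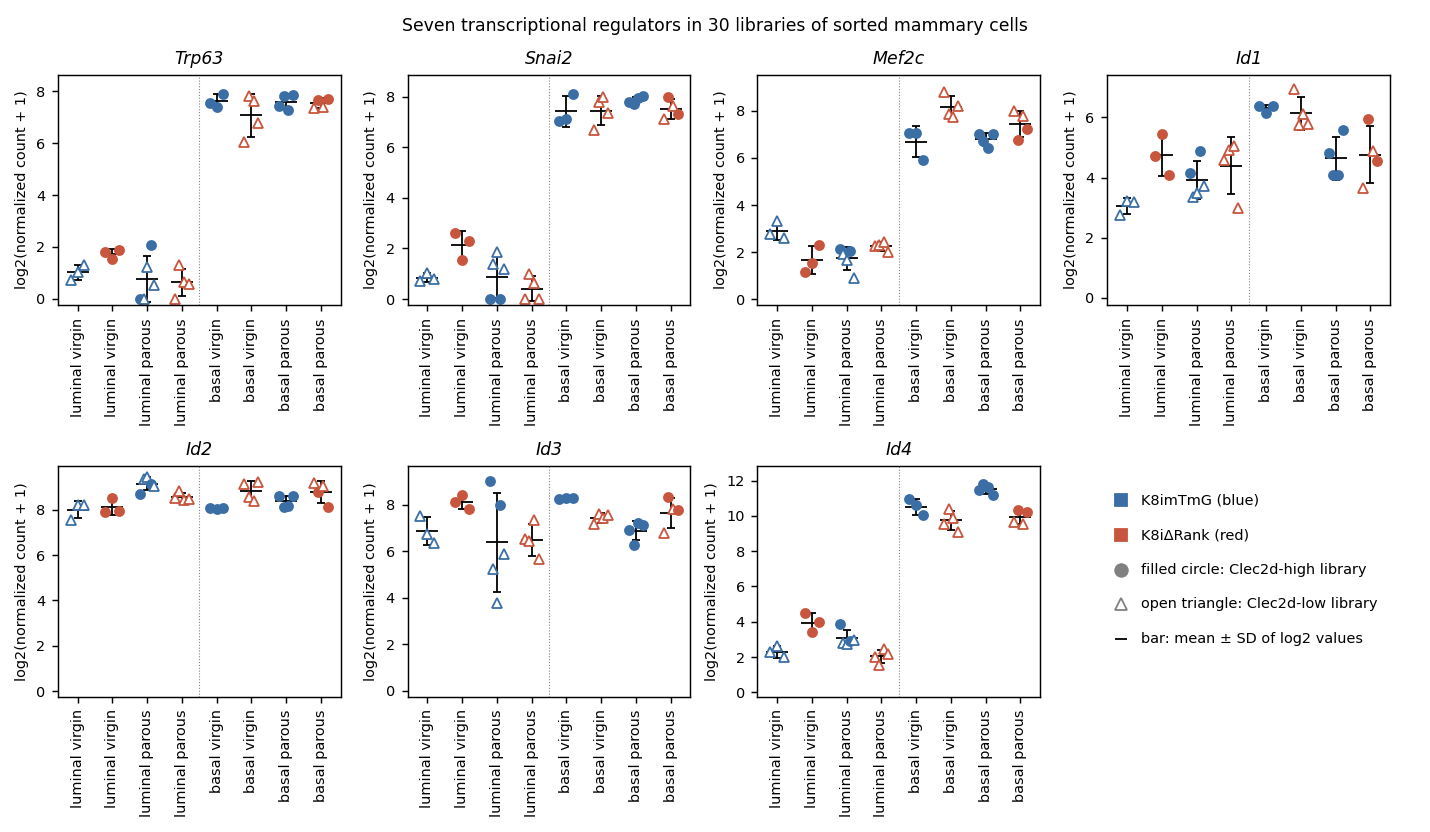
Expression of the 7 genes in each of the 30 libraries as log2(normalized count + 1), with K8imTmG in blue, K8iΔRank in red, Clec2d-high libraries as filled circles, Clec2d-low libraries as open triangles, and bars at the mean ± SD of the log2 values in each group. Trp63, Snai2, Mef2c and Id4 form separate luminal and basal bands, whereas Id2 spans 187 to 702 normalized counts in luminal and 265 to 599 in basal libraries.

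Trp63 was at 188, 165 and 239 normalized counts in basal virgin K8imTmG and at 64.6, 225, 198 and 108 in basal virgin K8iΔRank. In basal parous K8imTmG its counts were 172, 225, 155 and 232, and in basal parous K8iΔRank they were 160.4, 203, 168 and 208. The 4 basal groups overlapped, and the lowest basal library, that of mouse 820k, was still far above the highest luminal one. In luminal libraries Trp63 had a median of 1.05 (0 to 3.20), and all 15 were at or under 3 reads, the floor used for detection. Pooled, it had 20 luminal reads, or 0.667 per 1000000 (95% exact Poisson interval 0.407 to 1.03, counting error only), against 129 per 1000000 (124 to 134) in basal libraries. The basal against luminal difference was 6.41 on the log2 scale (SE 0.21, adjusted p = 1.06e-20, limma).

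Snai2 counts were 131, 136 and 277 in basal virgin K8imTmG and 102, 217, 251 and 164 in basal virgin K8iΔRank. They were 218, 206, 243 and 256 in basal parous K8imTmG and 137, 252, 198 and 159 in basal parous K8iΔRank. As with Trp63, no basal group stood apart from the others. The luminal values ran from 0 to 5.05, with 12 of 15 libraries at or under the floor and 0.934 reads per 1000000 overall. Snai2 was higher in basal cells by 6.48 (SE 0.20, adjusted p = 4.87e-21, limma).

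Mef2c was at 132, 132 and 59.8 in basal virgin K8imTmG and at 437, 231, 212 and 292 in basal virgin K8iΔRank. The parous basal values were 128, 104, 83.6 and 129 in K8imTmG and 254, 108, 220.1 and 151 in K8iΔRank. Every basal virgin K8iΔRank library lay above every K8imTmG basal library of either stage. Luminal Mef2c ran from 0.865 to 8.91, with 6 of 15 libraries at or under the floor, and the lineage difference was 5.12 (SE 0.18, adjusted p = 3.52e-20, limma).

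Id4, the Id gene with the clearest lineage pattern, was at 1975, 1546 and 1054 in basal virgin K8imTmG and at 757, 1369, 961 and 549 in basal virgin K8iΔRank. In parous basal cells it was at 2792, 3654, 3189 and 2336 in K8imTmG and at 796, 1275, 732 and 1202 in K8iΔRank. The 4 basal parous K8imTmG libraries were thus the highest of all, and the other 3 basal groups overlapped. Luminal Id4 was at 1.97 to 21.5 (median 5.74), from 134 pooled reads, and the 3 luminal virgin K8iΔRank libraries, at 21.5, 9.61 and 14.5, were the highest luminal group by mean. Its lineage difference of 7.59 (SE 0.15, adjusted p = 1.02e-24, limma) ranked 1 of 11133 genes by p-value.

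The luminal mean was 0.451% of the basal mean for Id4, 0.654% for Trp63 and 0.694% for Snai2, beside 0.841% for the 9 basal markers summed. Mef2c kept a larger share, 2.04%. Among the other Id genes the luminal mean was 36.1% of the basal mean for Id1, 83.7% for Id3 and 103% for Id2. As basal to luminal ratios of the means, that is 222 for Id4 and 119 for the summed markers, against 2.77 for Id1, 1.20 for Id3 and 0.970 for Id2. The luminal gate took GFP-positive cells, and the reporter was switched on under the Krt8 promoter. Whether basal cells in that gate gave the luminal reads of these genes was not tested.

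Within mice, basal exceeded luminal in 13 of 13 for Trp63, Snai2, Mef2c and Id4. The smallest of these within-mouse differences was 4.91 for Trp63, 5.06 for Snai2, 4.30 for Mef2c and 5.15 for Id4. Basal was the higher side in 10 of 13 mice for Id1, in 9 for Id3 and in 5 for Id2. These 4 basal genes were called higher in each of the 4 conditions tested alone, where 45.1% (virgin K8imTmG), 39% (virgin K8iΔRank), 36.2% (parous K8imTmG) and 29.7% (parous K8iΔRank) of all genes were called. The shares called higher were 22.2%, 20%, 18.3% and 16.1% in the same order. Id4 ranked 1 by p-value in 3 of the conditions and 14 in virgin K8iΔRank, where its difference of 5.80 (SE 0.32) was smaller than the 8.23 (SE 0.34) of virgin K8imTmG. With the Clec2d-high libraries alone, parous K8imTmG gave 6.57 for Trp63, 7.85 for Snai2, 4.69 for Mef2c and 8.16 for Id4, all still called.

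**Figure D2:**
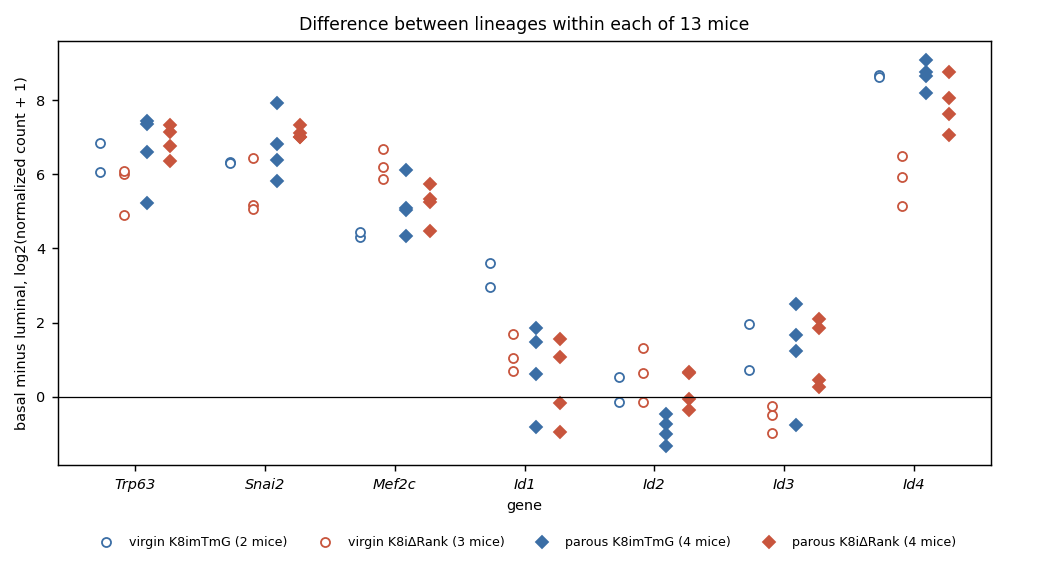
Basal minus luminal log2(normalized count + 1) in each of the 13 mice with both lineages, 1 symbol per mouse, open circles for virgin and diamonds for parous mice, blue for K8imTmG and red for K8iΔRank. All symbols lie above 0 for Trp63, Snai2, Mef2c and Id4, the 3 virgin K8iΔRank mice lie lowest for Id4 (5.15 to 6.50), and the symbols of Id1, Id2 and Id3 fall on both sides of 0.

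Id1, which encodes an E-protein antagonist active in many dividing and endothelial cells, was higher in basal cells by 1.44 (SE 0.24, adjusted p = 1.06e-05, limma). In this fit, without the split, its difference was widest in virgin K8imTmG, where the basal counts of 81.9, 70.3 and 81.5 faced luminal counts of 5.77, 8.39 and 8.10. That difference was 3.24 (SE 0.54, adjusted p = 1.98e-05, limma). In virgin K8iΔRank, basal counts of 121, 53.3, 68.4 and 53.7 faced luminal ones of 25.2, 42.3 and 15.9, a called difference of 1.41 (SE 0.50, adjusted p = 0.0274, limma). With the mouse as a block this became 1.14 (SE 0.50, adjusted p = 0.0902, limma), and the call was also lost without mouse 820k, 821k or 825k. The lineages lay on opposite sides of the split in both virgin genotypes, in opposite order. With the side of the split as a covariate the difference was 2.24 (SE 0.64, adjusted p = 0.00852, limma) in virgin K8imTmG and 2.40 (SE 0.61, adjusted p = 0.00534, limma) in virgin K8iΔRank. In parous mice the lineages overlapped, with 0.72 (adjusted p = 0.211, limma) in K8imTmG and 0.37 (adjusted p = 0.600, limma) in K8iΔRank. With the Clec2d-high libraries alone, the groups left were luminal virgin K8iΔRank, luminal parous K8imTmG, basal virgin K8imTmG and both basal parous groups. Their basal against luminal contrast was 0.76 (SE 0.34, adjusted p = 0.0891, limma) and was not called. Only parous K8imTmG then held both lineages, so genotype and stage are mixed into that value.

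Id2, expressed throughout the gland and known from alveolar development, did not differ between lineages over all conditions (0.06, SE 0.12, adjusted p = 0.707, limma). Its sign varied between conditions, although no contrast between conditions called Id2. In parous K8imTmG the luminal counts were 417, 645, 702, 566 and 535 and the basal counts 383, 278, 283 and 386, so the ranges did not overlap and luminal was higher in 4 of 4 mice. Basal Id2 was lower there by −0.78 (SE 0.22, adjusted p = 0.00626, limma), with the call lost without mouse 534 (adjusted p = 0.0651) and with the Clec2d-high libraries alone (−0.56, adjusted p = 0.126). In virgin K8iΔRank basal Id2, at 564, 375, 329 and 599, was higher than luminal Id2, at 241, 365 and 242, with overlapping ranges, by 0.70 (SE 0.25, adjusted p = 0.0274, limma). The mouse block took that to 0.60 (SE 0.28, adjusted p = 0.113, limma), and leaving out mouse 820k, 821k or 825k also ended the call. With the side of the split as a covariate the difference was 0.20 (SE 0.30, adjusted p = 0.722, limma). In the other conditions Id2 had differences of 0.08 (virgin K8imTmG) and 0.22 (parous K8iΔRank), neither called.

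Id3, an Id gene also strongly expressed in vessels, had the widest spread of any member within 1 group, with an SD of 2.12 on the log2 scale in luminal parous K8imTmG. That group ran from 12.8 (mouse 534) through 36.8, 58.8 and 252 to 528 (mouse 494), and the 2 highest of these were its 2 Clec2d-high libraries. The other luminal counts were 182, 107 and 81.7 in virgin K8imTmG, 276, 342 and 223 in virgin K8iΔRank and 91.3, 87.4, 163 and 49.7 in parous K8iΔRank. Basal counts were 302, 318 and 309.7 in virgin K8imTmG, 142, 194, 173 and 188 in virgin K8iΔRank, 119, 77.6, 147 and 139.9 in parous K8imTmG, and 109, 320.4, 223 and 216 in parous K8iΔRank. Virgin K8iΔRank was the only condition in which every luminal library exceeded every basal one (−0.67, SE 0.69, adjusted p = 0.462, limma).

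Over all conditions the Id3 lineage difference was 0.60 (SE 0.33, adjusted p = 0.131, limma) and was not called. With the mouse as a block it was 0.77 (SE 0.24, adjusted p = 0.0130, limma) and called. The block also changed parous K8imTmG from 0.50 (adjusted p = 0.556) to 1.16 (SE 0.42, adjusted p = 0.0364, limma) and parous K8iΔRank from 1.17 (adjusted p = 0.179) to 1.17 (SE 0.42, adjusted p = 0.0437, limma). With the Clec2d-high libraries alone Id3 was lower in basal cells, by −1.63 (SE 0.31, adjusted p = 0.000815, limma) in parous K8imTmG. The contrast of all groups left on that side, with genotype and stage mixed in as for Id1, gave −0.58 (SE 0.20, adjusted p = 0.0348, limma). Leaving out mouse 494 alone also made the pooled difference pass the threshold in the basal direction (adjusted p = 0.0174).

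**Figure D3:**
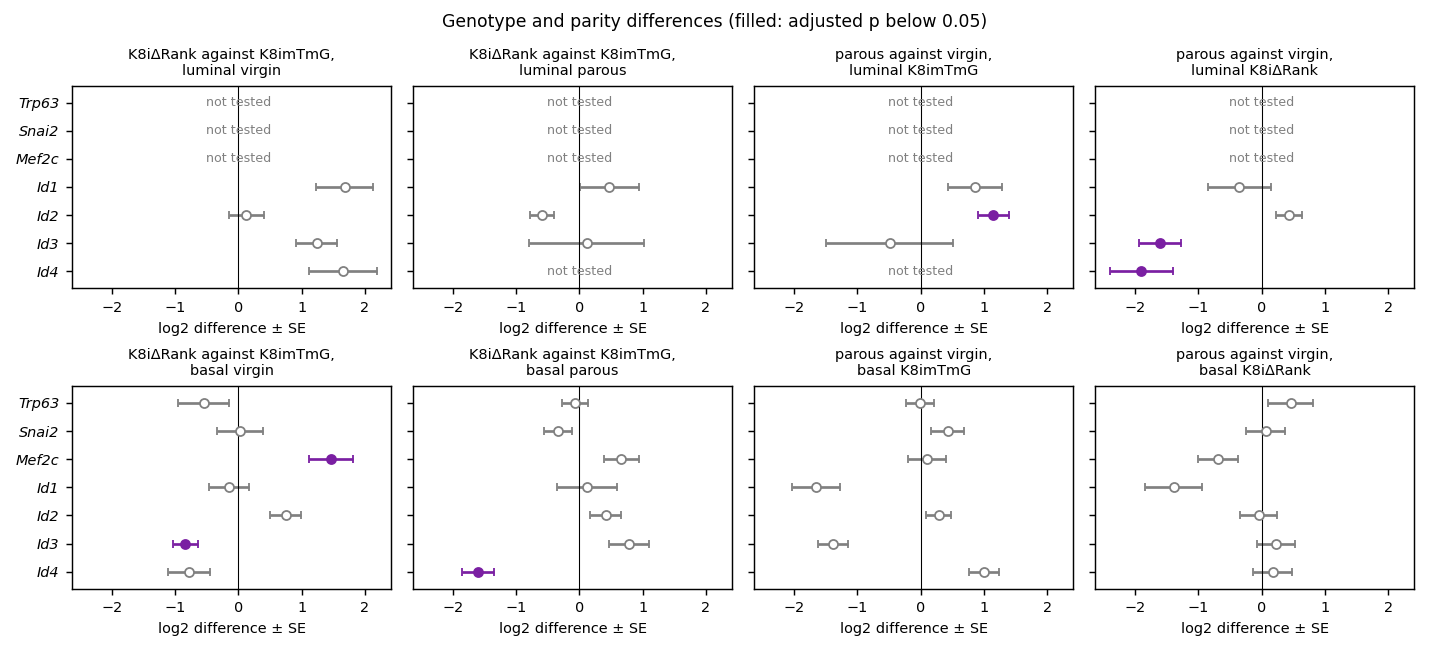
Differences between 2 groups for each gene on the log2(normalized count + 1) scale, with the SE from limma as bars, in the 4 luminal comparisons (top) and the 4 basal comparisons (bottom). Filled symbols mark an adjusted p below 0.05, which 6 of the tested differences reached, and "not tested" marks genes too low in the luminal libraries compared.

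The Rank genotype was compared within each lineage and stage. In basal parous cells, 1 of 7 members was called, beside 0.906% of genes tested: Id4 was lower in K8iΔRank, with a mean of 1001 ± 277 (SD, n = 4) against 2993 ± 562 (SD, n = 4). Its log2 difference was −1.60 (SE 0.25, adjusted p = 0.0350, limma, rank 7 by p-value), and the groups did not overlap. The call was lost without mouse 532, 534, 557, 787k, 798k or 830k, with adjusted p-values from 0.00844 to 0.125 over the 8 mice left out in turn and differences from −1.73 to −1.47. In the Clec2d-high libraries alone the difference was −1.25 (SE 0.22, adjusted p = 0.251, limma), with the 2 K8iΔRank libraries at 1275 and 1202 still below all 4 K8imTmG libraries. The 9 basal markers moved the same way, summing to 10784 to 11723 in K8iΔRank and 13355 to 15592 in K8imTmG (0 of 9 called), and the 7 luminal markers ran from 1300 to 1405 against 729 to 1096 (1 of 7 called higher). Their part in the Id4 result was not tested.

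The other members of the basal parous comparison were not called. Mef2c had a difference of 0.66 (SE 0.27, adjusted p = 0.177, limma) and was called without mouse 794k (adjusted p = 0.0395), whose library is Clec2d-high. In K8iΔRank, Mef2c was at 108 to 151 in the 2 Clec2d-high and 220 to 254 in the 2 Clec2d-low libraries. The K8imTmG libraries, all Clec2d-high, were at 83.6 to 129. The part of the split in that call was not tested. Id3 had 0.78 (SE 0.31, adjusted p = 0.170, limma) and Id2 0.41 (SE 0.25, adjusted p = 0.336, limma). The differences of Trp63 (−0.07), Snai2 (−0.34) and Id1 (0.12) were within 2 standard errors of 0.

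In basal virgin cells 2 of 7 members were called, beside 8.99% of genes tested. Mef2c was higher in K8iΔRank, at 293 ± 102 (SD, n = 4) against 108 ± 41.8 (SD, n = 3), by 1.46 (SE 0.35, adjusted p = 0.0326, limma). Id3 was lower, at 174 ± 23.3 (SD, n = 4) against 309.9 ± 8.31 (SD, n = 3), by −0.84 (SE 0.20, adjusted p = 0.0307, limma). Neither gene's groups overlapped. Since the 4 K8iΔRank libraries were all Clec2d-low and the 3 others all Clec2d-high, a genotype effect cannot be told apart from the split here. The Mef2c call was lost without mouse 538, 568, 820k or 825k (adjusted p up to 0.0878), and the Id3 call without any of 6 of the 7 mice (up to 0.0798). Id2 did not overlap between genotypes either, but was not called (0.75, SE 0.25, adjusted p = 0.0823, limma), nor was Id4 (−0.78, SE 0.33, adjusted p = 0.150, limma). Trp63 (−0.55, SE 0.40), Snai2 (0.03, SE 0.36) and Id1 (−0.15, SE 0.31) showed no call.

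In luminal virgin cells no member was called, beside 0.984% of genes, although Id1, Id3 and Id4 were each higher in all 3 K8iΔRank libraries than in all 3 K8imTmG libraries and had unadjusted p-values under 0.05. Their differences were 1.68 (SE 0.45, adjusted p = 0.0806, limma) for Id1, 1.24 (SE 0.32, adjusted p = 0.0784, limma) for Id3 and 1.65 (SE 0.53, adjusted p = 0.116, limma) for Id4. Of the 10066 genes tested, 2226 had an unadjusted p under 0.05. On the recovered reads DESeq2 called 2 (Id1 and Id3) and edgeR 0. The 3 K8iΔRank libraries were the Clec2d-high ones, their basal markers summed to 102 to 328 against 78.2 to 96.4, and the Id4 values rested on 4 to 17 reads per library. The part of the basal markers and of read depth in the result was not tested. With the side of the split as a covariate in a fit of all 30 libraries, where other groups set the size of the split, the Id1 difference was 0.69 (SE 0.64, adjusted p = 0.830, limma) and that of Id3 changed sign, to −1.03 (SE 0.68, adjusted p = 0.734, limma). In luminal parous cells 0 of the 3 members tested were called, beside 0.0991% of genes, and the nearest was Id2 at −0.59 (SE 0.19, unadjusted p = 0.00924, adjusted p = 0.141, limma). Within the Clec2d-low libraries the Id2 difference was −0.74 (SE 0.16, adjusted p = 0.0596, limma). DESeq2 called Id2 lower in luminal parous K8iΔRank, and edgeR called none. Trp63, Snai2 and Mef2c were too low to be tested in any luminal-only comparison, and Id4 in luminal parous genotype, luminal K8imTmG parity and luminal genotype by stage.

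Parity was compared within each lineage and genotype. In luminal K8imTmG cells Id2 was higher after parity, at 573 ± 109 (SD, n = 5) against 259 ± 62.7 (SD, n = 3), and the groups did not overlap. The difference was 1.15 (SE 0.25, adjusted p = 0.0471, limma), the 1 member called of 3 tested, beside 2.2% of genes. It was called without mouse 494 but not without any of the other 7 (adjusted p from 0.0216 to 0.139, difference from 0.93 to 1.27). Within the Clec2d-low libraries, which are all 3 virgin and 3 parous ones, it was 1.29 (SE 0.23, adjusted p = 0.0172, limma). The 7 luminal markers summed to 4612 to 7453 in these parous and 8743 to 12652 in these virgin groups, without overlap. Across the 15 luminal libraries Id2 had an r of −0.872 with that sum (−0.732 within groups). The part of the luminal markers in the Id2 result was not tested. Id1 also had groups that did not overlap (0.86, SE 0.42, adjusted p = 0.269, limma), whereas Id3 had a difference of −0.49 with an SE of 1.00. The Id3 value depended on the setting, at −1.90 (SE 0.53, adjusted p = 0.0517, limma) within the Clec2d-low libraries and −1.28 (SE 0.43, adjusted p = 0.0367, limma), a call, with array quality weights. On the recovered reads its direction turned, at 0.54 with DESeq2 and 0.49 with edgeR.

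In luminal K8iΔRank cells 2 of the 4 tested members were called lower after parity, beside 7.78% of genes called lower and 16% in either direction. Id3 fell from 281 ± 59.6 (SD, n = 3) to 97.9 ± 47.5 (SD, n = 4), a difference of −1.61 (SE 0.33, adjusted p = 0.0122, limma). Id4 fell from 15.2 ± 5.95 (SD, n = 3) to 3.24 ± 1.03 (SD, n = 4), a difference of −1.90 (SE 0.50, adjusted p = 0.0274, limma). Both genes had groups that did not overlap. The split separates these 2 groups completely, and the basal markers summed to 102 to 328 in virgin and 63.9 to 105 in parous libraries (1 of 5 tested was called lower). The part of these markers was not tested. The Id3 call held without each mouse but was lost with all 30 libraries in 1 fit (SE 0.69, adjusted p = 0.154, limma), and with the side of the split as a covariate its difference turned to 0.66 (SE 0.66, adjusted p = 1.00, limma). Id4 was still called in the fit of all 30 libraries (adjusted p = 0.00576, limma) but not with the covariate, at −1.30 (SE 0.39, adjusted p = 0.969, limma). Also, the Id4 call was lost without mouse 787k, 794k or 830k and Id4 could not be tested without 821k or 825k. Id1 (−0.35, SE 0.50) and Id2 (0.43, SE 0.21) were not called.

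In basal cells of K8imTmG mice no member was called between parous and virgin glands, and limma called 0% of all genes, with 969 genes at an unadjusted p under 0.05. This was the basal comparison free of the split, since all 7 libraries were Clec2d-high. All 4 Id genes had ranges that did not overlap, but how many of all genes had such ranges was not counted. Id3 was at 121 ± 31.3 (SD, n = 4) in parous and 309.9 ± 8.31 (SD, n = 3) in virgin libraries, a difference of −1.39 (SE 0.24, adjusted p = 0.145, limma) that ranked 4 of 10538 genes by p-value. Id1 was at 27.2, 16.0, 15.9 and 46.6 in parous libraries against 70.3 to 81.9 in virgin ones (−1.66, SE 0.38, adjusted p = 0.229, limma, rank 36). Id4 had a difference of 1.00 (SE 0.24, adjusted p = 0.243, limma, rank 43) and Id2 of 0.29 (SE 0.19, adjusted p = 0.643, limma). Of the 7 members, 3 had an unadjusted p under 0.05, and on the recovered reads DESeq2 called 2 (Id3 lower, Id4 higher) and edgeR 1 (Id3 lower). Trp63 (−0.02, SE 0.22), Snai2 (0.43, SE 0.26) and Mef2c (0.11, SE 0.30) had overlapping groups.

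In basal K8iΔRank cells limma again called 0% of genes between parous and virgin glands (1036 at an unadjusted p under 0.05), so 0 of 7 members. Id1 had the lowest unadjusted p of them, 0.0110, with counts of 11.6, 61.4, 28.6 and 22.2 in parous and 53.3 to 121 in virgin libraries (−1.39, SE 0.45, adjusted p = 0.469, limma). DESeq2 and edgeR called no member there. Unlike in K8imTmG, the ranges of Id3 (0.23, SE 0.30) and Id4 (0.18, SE 0.31) overlapped.

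The tests of the differences themselves gave no call. For genotype by stage in basal cells limma called 0% of genes (1082 at an unadjusted p under 0.05), and Id3 was the 1 member under that p, with a difference of differences of 1.62 (SE 0.40, adjusted p = 0.313, limma, rank 27). DESeq2 called Id3 in that test and edgeR called no member. For Id4 the value was −0.82 (SE 0.42, adjusted p = 0.514, limma), so the genotype difference of Id4 was not shown to differ between parous and virgin basal cells. In luminal cells 12.9% of genes were called and 0 of the 3 members tested, with −0.72 (SE 0.33, unadjusted p = 0.0429, adjusted p = 0.139, limma) for Id2 and −1.21 (SE 0.69, adjusted p = 0.232, limma) for Id1, and neither DESeq2 nor edgeR called a member.

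Whether the lineage difference itself changed was tested by 4 contrasts chosen after the data were seen. Between virgin genotypes, where 28% of genes were called, the Mef2c lineage difference was larger in K8iΔRank by 2.68 (SE 0.53, adjusted p = 0.00110, limma) and that of Id4 smaller by −2.43 (SE 0.47, adjusted p = 0.000893, limma). The basal means of Mef2c were 293 against 108, while its luminal virgin K8iΔRank values rested on 1 to 3 reads per library, at or under the floor. For Id4 the K8iΔRank and K8imTmG means were 909 against 1525 in basal cells. In luminal cells they were 15.2 against 4.01, from 5 to 17 and 4 to 10 reads per library. Between stages of K8iΔRank, where 8.04% were called, the lineage difference was larger in parous mice for Id4 by 2.08 (SE 0.43, adjusted p = 0.0136, limma) and for Snai2 by 1.81 (SE 0.57, adjusted p = 0.0484, limma). With the mouse as a block Snai2 was at 1.55 (SE 0.52, adjusted p = 0.0921, limma) and no longer called, and the call was also lost with a pseudocount of 4 (0.85, adjusted p = 0.155) and without any of 11 of the 17 mice (531, 532, 533, 558, 787k, 794k, 798k, 820k, 821k, 825k and 830k, adjusted p up to 0.166). The luminal values of Snai2 were mostly at or under the floor. Luminal Id4 in K8iΔRank went from a mean of 15.2 in virgin mice to 3.24 in parous mice (4 to 8 reads per library), and basal Id4 from 909 to 1001. The Id4 call in that contrast was lost without mouse 794k, 825k or 830k. No member was called between stages of K8imTmG (0.808% of genes), where Id1 came nearest at −2.52 (SE 0.70, unadjusted p = 0.00115, adjusted p = 0.0738, limma), or between parous genotypes (0.00898% of genes), where Id2 came nearest at 1.00 (SE 0.32, unadjusted p = 0.00410, adjusted p = 0.684, limma). DESeq2 and edgeR called no member in either of these. The virgin genotype contrast compares libraries on opposite sides of the split. The K8iΔRank stage contrast does so in part, since basal parous K8iΔRank held 2 Clec2d-high and 2 Clec2d-low libraries.

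Endothelial genes were followed because Id1 and Id3 are also vessel genes. Of 7 endothelial markers 6 were in the table, and their summed count was 217 to 547 in basal virgin K8imTmG, 279 to 1220 in basal virgin K8iΔRank, 87.6 to 172 in basal parous K8imTmG and 108.5 to 195 in basal parous K8iΔRank, against 8.82 to 69.2 in luminal libraries. All 6 were called higher in basal cells over all conditions. None was called between parous and virgin basal cells, comparisons in which limma called 0% of all genes. In each genotype the basal sums of the 2 stages did not overlap, with parous the lower. Across the 15 basal libraries Pearson's r with that sum was 0.844 for Id1 (0.647 within groups) and 0.333 for Id3 (0.082 within groups). Across the 15 luminal libraries it was 0.248 for Id1 (0.467 within groups) and 0.689 for Id3 (0.850 within groups). The other members had a basal r with that sum of 0.501 for Mef2c (0.279 within groups), 0.091 for Id2, −0.371 for Snai2, −0.399 for Trp63 and −0.420 for Id4. Mouse 820k, in basal virgin K8iΔRank, had the highest basal Mef2c count (437) and the highest endothelial sum (1220). These values are a description over libraries that share groups. The 12 immediate early genes summed to 8983 to 31408 over the 30 libraries, and that sum had an r of 0.622 with basal Id1 (0.770 within groups). Of 5 adipocyte markers only Fabp4 and Lpl were in the table, and Adipoq, Plin1 and Cidec were not. The sum of these 2 had an r of 0.684 with basal Id1 and 0.568 with basal Id3. The part of any of these gene sets in the Id1, Id3 and Mef2c values was not tested.

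**Figure D4:**
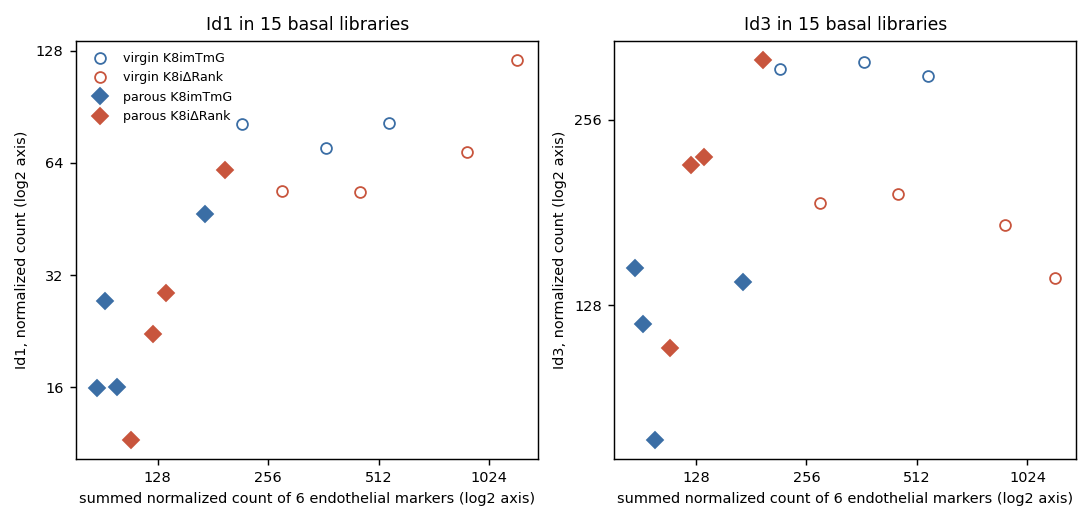
Id1 (left) and Id3 (right) normalized counts in the 15 basal libraries against the summed normalized count of 6 endothelial markers, on log2 axes, open circles for virgin and diamonds for parous, blue for K8imTmG and red for K8iΔRank. Id1 climbs with the endothelial sum from 11.6 to 121, whereas the highest Id3 values, 302 to 320.4, sit at intermediate endothelial sums.

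The partners and regulators of the members were taken from lists of known partners and pathway genes. The 3 E proteins that Id proteins bind split between the lineages: Tcf4 was higher in basal cells by 0.86 (SE 0.10), and Tcf3 and Tcf12 were lower by −0.42 and −0.29, all 3 called (list median −0.29 against −0.04 for all genes). Of 21 BMP and Smad pathway genes 15 were tested, with 10 higher in basal cells, 1 lower and 4 not called (median 0.75). The ligand trap Fst was higher by 6.09 (SE 0.23), the ligand Bmp7 by 4.76 (SE 0.26) and the type II receptor Acvr2a by 1.91 (SE 0.16), whereas the type I receptor Bmpr1b was lower by −3.31 (SE 0.30). Of the 6 other EMT transcription factors only Zeb2 was in the table, and it was higher in basal cells by 2.90 (SE 0.30).

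Of the 14 p63-related genes tested, 13 were higher in basal cells and Fgfr2 was not called. The basal keratins Krt5 (7.44, SE 0.16) and Krt14 (7.15, SE 0.17) and the Notch ligand Jag2 (5.99, SE 0.18) led them, and 2 of these keratins also serve as basal markers here. The Mef2 list was nearly balanced. Of 7 genes tested 3 were higher (Mrtfa by 0.97, Hdac4 by 0.91 and Mef2a by 0.26) and 2 lower (Hdac5 by −0.50 and Mrtfb by −0.43). Of 10 luminal transcription factors 9 were lower in basal cells, led by Ehf (−5.23, SE 0.31), Elf5 (−4.94, SE 0.23) and Tfcp2l1 (−3.86, SE 0.28), and Cebpb was higher by 0.84 (SE 0.14).

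Between genotypes and stages few of these listed genes were called. In basal virgin cells the K8iΔRank libraries had higher Tcf4 (1.13) and Bmp7 (1.12) and lower Esr1 (−1.27, the oestrogen receptor), Junb (−1.46) and Nr4a1 (−2.72). In basal parous cells, where Id4 was called, no E protein, BMP pathway, p63 or Mef2 list gene was. That comparison called only 0.906% of all genes, so the lack of a call in these lists does not set Id4 apart from them. In luminal K8imTmG parity, where Id2 was called, Tcf4 (−0.86) was lower and Ier2 (1.23) higher. In luminal K8iΔRank parity, where Id3 and Id4 were called, Ehf was higher (1.22) and Foxa1 (−2.17), Stat5a (−1.33), Esr1 (−1.30) and Fgfr2 (−1.27) were lower. There 3 of 12 immediate early genes were lower, beside 7.78% of all genes called lower.

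The genes whose log2 counts ran most like each member over the 30 libraries were found by Pearson's r, given as a description of libraries that share lineage and depth. For Trp63 they were Popdc2 (0.985), Snai2 (0.984) and Irx4 (0.982). For Snai2 they were Wif1 (0.988), Irx4 (0.988) and Col17a1 (0.986). Id4 ran with the smooth-muscle actin gene Acta2 (0.990), Krt5 (0.986) and Rbpms, and Mef2c with Clip3 (0.983), Tgfb1i1 and Irag1. The remaining Id genes had looser partners, led by Cldn5, an endothelial tight-junction gene, for Id1 (0.818), Tfap4 for Id2 (0.765) and Mettl7a1 for Id3 (0.814). After the mean of each lineage was subtracted the leading partners of the members other than Trp63 were Tmem70 for Snai2 (0.683), Vps41 for Mef2c (0.815), Cldn5 for Id1 (0.689), Tfap4 for Id2 (0.781), Creb3l2 for Id3 (0.873) and Suclg2 for Id4 (0.883). Within basal libraries Clec2d itself had r of −0.877 with Mef2c, −0.767 with Id2 and 0.769 with Id4. In luminal libraries it had 0.776 with Id4 and 0.698 with Id3, so for these genes the variation within a lineage moved with the library split. In basal cells the split largely followed genotype, since every K8imTmG library was Clec2d-high and only 2 K8iΔRank libraries were. The basal r values cannot tell the split from genotype.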

How the data were processed

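RNA of sorted luminal and basal cells was made into QuantSeq 3′ libraries with 6-nt unique molecular identifiers (UMIs) and 86-base reads. The authors trimmed reads with BBDuk, extracted UMIs with UMI-tools, aligned to GRCm39 with Bowtie2 and then deduplicated with UMI-tools. The deduplicated reads went through the nextpresso pipeline, were counted on Gencode vM26 and divided by DESeq2 size factors. The deposited signal values are these normalized counts. The authors kept genes above 10 in at least 25% of samples, and other genes are not analysed here. Dividing each value by the step of its library gave whole reads for 100% of values (tolerance 0.01). The kit is directional, and the strand setting of the counting is not given in the sources used here.

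Groups followed the labels. Counts were compared as log2(normalized count + 1) with limma 3.58.1 (trended variance, Benjamini-Hochberg over all genes tested, threshold 0.05) among genes above 10 in at least 25% of the libraries compared. Lineage contrasts used 1 fit of 8 groups, genotype and parity comparisons 2 groups per fit, and genotype by stage the 4 groups of a lineage. Recovered reads were also fitted with DESeq2 1.42.0 and with edgeR 4.0.16. Further alternatives changed the pseudocount (0.5 or 4), dropped the filter or required a mean of 50, normalized by quantiles, weighted the arrays, fitted 30 libraries at once, used the split as covariate or 1 side alone, and left out each mouse. Luminal and basal libraries with the same number come from the same animal, so the numbers pair the samples, and the mouse was a block in an alternative. All 43 pairs of libraries within groups differed beyond sampling noise (lowest chi-square per degree of freedom 2.67). All 7 members are named in every comparison, and from each list the 3 called genes with the smallest adjusted p in either direction. Likeness used the 3 highest Pearson r. Some genes that these rules name are not reported here. The members and lists, and the library split, were chosen with earlier results of these data known. Scripts ran in R 4.3.3 and Python 3.11.15 and were tested on simulated data.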

Additional observations from a re-analysis of the deposited data

Results flagged for a closer look

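Id4 in luminal parous K8imTmG had 1 library, that of mouse 494, at 13.4 normalized counts, set apart from the other 4 (5.74 to 6.92) by 0.846 of the group's range. It was the 1 case in 35 gene and group combinations examined this way, where chance gives about 1 in 20, and the library is Clec2d-high with 2 to 16 reads of Id4 per library in that group.

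The direction of the Id3 lineage difference was opposite in all mice of some conditions. The mean basal minus luminal difference on the log2 scale was −0.58 in virgin K8iΔRank (lower in basal cells in 3 of 3 mice), against 1.34 in virgin K8imTmG (higher in 2 of 2) and 1.17 in parous K8iΔRank (higher in 4 of 4). The tests of these differences were not passed, with an adjusted p of 0.123 between virgin genotypes and 0.202 between stages of K8iΔRank (limma). The luminal virgin K8iΔRank libraries are Clec2d-high and the basal ones Clec2d-low. With the side of the split as a covariate both differences changed sign and neither was called, going from −2.07 to 2.47 (adjusted p = 0.551) between virgin genotypes and from 1.84 to −1.57 (adjusted p = 0.965) between stages of K8iΔRank (limma).

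The lineage difference itself passed the test in 4 cases among contrasts chosen after the data were seen. Between virgin genotypes it was larger in K8iΔRank by 2.68 for Mef2c and smaller by −2.43 for Id4, and between stages of K8iΔRank it was larger in parous mice by 1.81 for Snai2 and by 2.08 for Id4. In the virgin genotype contrast the libraries compared lie on opposite sides of the split. In the K8iΔRank stage contrast this holds in part, since basal parous K8iΔRank held 2 Clec2d-high and 2 Clec2d-low libraries. With the side of the split as a covariate none of the 4 was called.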

How the results depend on the processing

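The log2 differences of the members gave 1187 values from settings other than leaving out a mouse. They kept direction and side of the threshold in 1077 cases, were no longer past it in 20, newly past it in 25, moved in 61 and reversed in 4. Counts of calls are not in this tally. The 4 reversals were all Id3. With the Clec2d-high libraries alone they were −0.58 for the groups left, where genotype and stage mix with lineage, and −1.63 in parous K8imTmG. With the side of the split as a covariate they were 0.66 for luminal K8iΔRank parity and 1.43 for the basal virgin genotype. The cause was not tested.

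The lineage counts of members stayed within 1.5 times of the reported ones. Array quality weights, some of whose fits stopped before converging, called 3 members (Id1, Id3, Id4) for the luminal virgin genotype, 1 (Id2) for the luminal parous genotype, 2 for luminal K8imTmG parity, 2 for the basal parous genotype, 1 (Id1) for basal K8iΔRank parity and 1 (Id2) for lineage by genotype in parous mice. DESeq2 called 2, 1 and 2 for the luminal virgin genotype, the luminal parous genotype and basal K8imTmG parity, and 1 (Id3) for genotype by stage in basal cells, and edgeR 1 for basal K8imTmG parity. With all 30 libraries in 1 fit the count was 1 for the luminal virgin genotype, 2 for luminal K8imTmG parity and 3 for genotype by stage in luminal cells. With no filter the last 2 were 0 and 2. A mean of at least 50 left 1 call in luminal K8iΔRank parity, and a pseudocount of 4 left 1 in lineage by stage of K8iΔRank. With the side of the split as a covariate the counts were 0 for luminal K8iΔRank parity, the basal virgin and basal parous genotypes, lineage by stage of K8iΔRank and lineage by genotype in virgin mice, and the Clec2d-high libraries alone gave 0 for the basal parous genotype.

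With 1 mouse left out at a time the count was 0 to 1 members for the luminal virgin genotype and luminal K8imTmG parity, 1 to 2 for luminal K8iΔRank parity, and 0 to 2 for the basal virgin genotype, the basal parous genotype and lineage by stage of K8iΔRank. Where this left 1 library of a group, the fit took its spread from the other groups.

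With the replicate block, in which the pairing is by mouse, the counts of members were 6 over all conditions, 5 in virgin K8imTmG, 4 in virgin K8iΔRank, 6 in parous K8imTmG and 5 in parous K8iΔRank, against 5, 5, 6, 5 and 4 without it, and 1 against 2 for lineage by stage of K8iΔRank. Beside the calls given with the results, it changed no other call of a member. The genotype and parity comparisons within a lineage hold each mouse once and could not be paired. Depth limits Trp63, Snai2 and Mef2c in luminal cells, where most values are a few reads.

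Over the settings other than leaving out a mouse, the number of all genes called, against which the members' counts are read, ran from 0 to 2514 for the luminal virgin genotype (99 as reported), from 7 to 1147 for the luminal parous genotype (10), from 106 to 3993 for luminal K8imTmG parity (226), from 0 to 1857 for luminal K8iΔRank parity (1643), from 0 to 2161 for the basal virgin genotype (954) and from 0 to 2572 for the basal parous genotype (96). For basal parity it reached 120 in K8imTmG and 214 in K8iΔRank (0 in both), and over all conditions the lineage count ran from 3070 to 6508 (6197).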
